A study of Mus musculus with 16 samples.

Results

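Messenger RNA of 10 genes of the early endosome and its sorting machinery was measured in mouse brain cortex. They were the rows of the count table with the gene symbols Rab5a, Rab5b, Rab5c, Eea1, Rabep1, Rin3, Vps35, Vps26a, Sorl1 and Picalm, which are 10 of 55385 genes in the table. All 10 passed the filter on low counts and were among the 17555 genes tested. The series holds polyadenylated RNA from the cortex of 16 mice aged 9 months in 4 groups of 4, each with 2 females and 2 males. Wild-type mice (WT) were C57BL/6J. Dp16 mice carry a duplication of the distal part of mouse chromosome 16, which corresponds to much of human chromosome 21, so that its genes are present in 3 copies. 5xFAD mice carry human transgenes with familial Alzheimer's disease mutations under the Thy1 promoter, which is active mainly in neurons, and 5xFAD-Dp16 mice carry both genotypes. No mouse was treated. The labels name separate samples and give nothing on litters or cohorts, so p-values measure the spread between these samples.

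Early endosomes receive cargo that has just been taken up from the cell surface. Rab5 is the small GTPase that marks their membrane: it is loaded with GTP by exchange factors such as RIN3, and the active form recruits effectors, among them the tether EEA1 and RABEP1 (rabaptin-5), that bring endosomes together for fusion. Cargo is then either passed on to lysosomes or retrieved. Retrieval to the Golgi and the cell surface uses retromer, whose core contains VPS35 and VPS26, and the receptor SORL1, which binds the amyloid precursor protein and hands it to retromer. PICALM acts a step earlier, at clathrin-coated pits on the plasma membrane. Enlarged Rab5-positive endosomes are a known feature of neurons in Down syndrome and in early Alzheimer's disease, and variants near SORL1, PICALM and RIN3 are associated with Alzheimer's disease in people. The groups allow the mRNA of these genes to be compared without and with the duplication, and without and with the transgenes.

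None of the 10 genes lies in the duplicated segment, taken here to run on chromosome 16 between Lipi and Zbtb21 (75540514 to 97962622, GRCm38, gene models of GENCODE M21). Of the Rab5 genes, Rab5a is on chromosome 17 (53479234 to 53507680), Rab5b on chromosome 10 (128677175 to 128696264) and Rab5c on chromosome 11 (100715009 to 100738215). Eea1 is on chromosome 10 (95940650 to 96045518), Rabep1 on chromosome 11 (70844778 to 70943105) and Rin3 on chromosome 12 (102283048 to 102390855). Vps35 is on chromosome 8 (85260392 to 85299802), Vps26a on chromosome 10 (62455235 to 62486805), Sorl1 on chromosome 9 (41964720 to 42124297) and Picalm on chromosome 7 (90130213 to 90213465). Values are sums over all exons of a gene. Nup88 overlaps Rabep1 and Orc6 overlaps Vps35 on the opposite strand, with up to 1565 and 972 counts per library; no source used here says if reads were counted by strand, and part of the Rabep1 and Vps35 counts could belong to these neighbours.

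Library totals ran from 16874481 to 22912168 counts. Thy1, whose promoter drives the transgenes, stood at 736 to 1051 CPM (counts relative to the library total, which was scaled for composition by edgeR's TMM factors) in the 8 libraries without the transgenes and at 1542 to 2205 CPM in the 8 with them, which checks those labels. App, on the duplicated segment, had mean levels of 1315 CPM for WT, 1867 for Dp16, 1140 for 5xFAD and 1977 for 5xFAD-Dp16. The 5 markers of cortical excitatory neurons were detected in 16 of 16 libraries, but at unequal levels. Their summed level was lowest in WT replicate 3 (512 CPM) and Dp16 replicate 4 (625 CPM), against 1062 to 1415 CPM in the other WT libraries. In WT replicate 3 the sum of 5 broader neuronal markers was the highest of the 16 libraries (9096 CPM), and its TMM factor the lowest (0.858). Libraries also differed in how strongly expression depended on gene length. This length slope is the change of a library's log2 CPM deviation per doubling of exon length. It ran from -0.42 in WT replicate 3 to 0.27 in WT replicate 1, and its relation to the 10 genes is given after the comparisons. The part of cell composition or RNA quality in the slope was not tested.

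**Figure D1:**
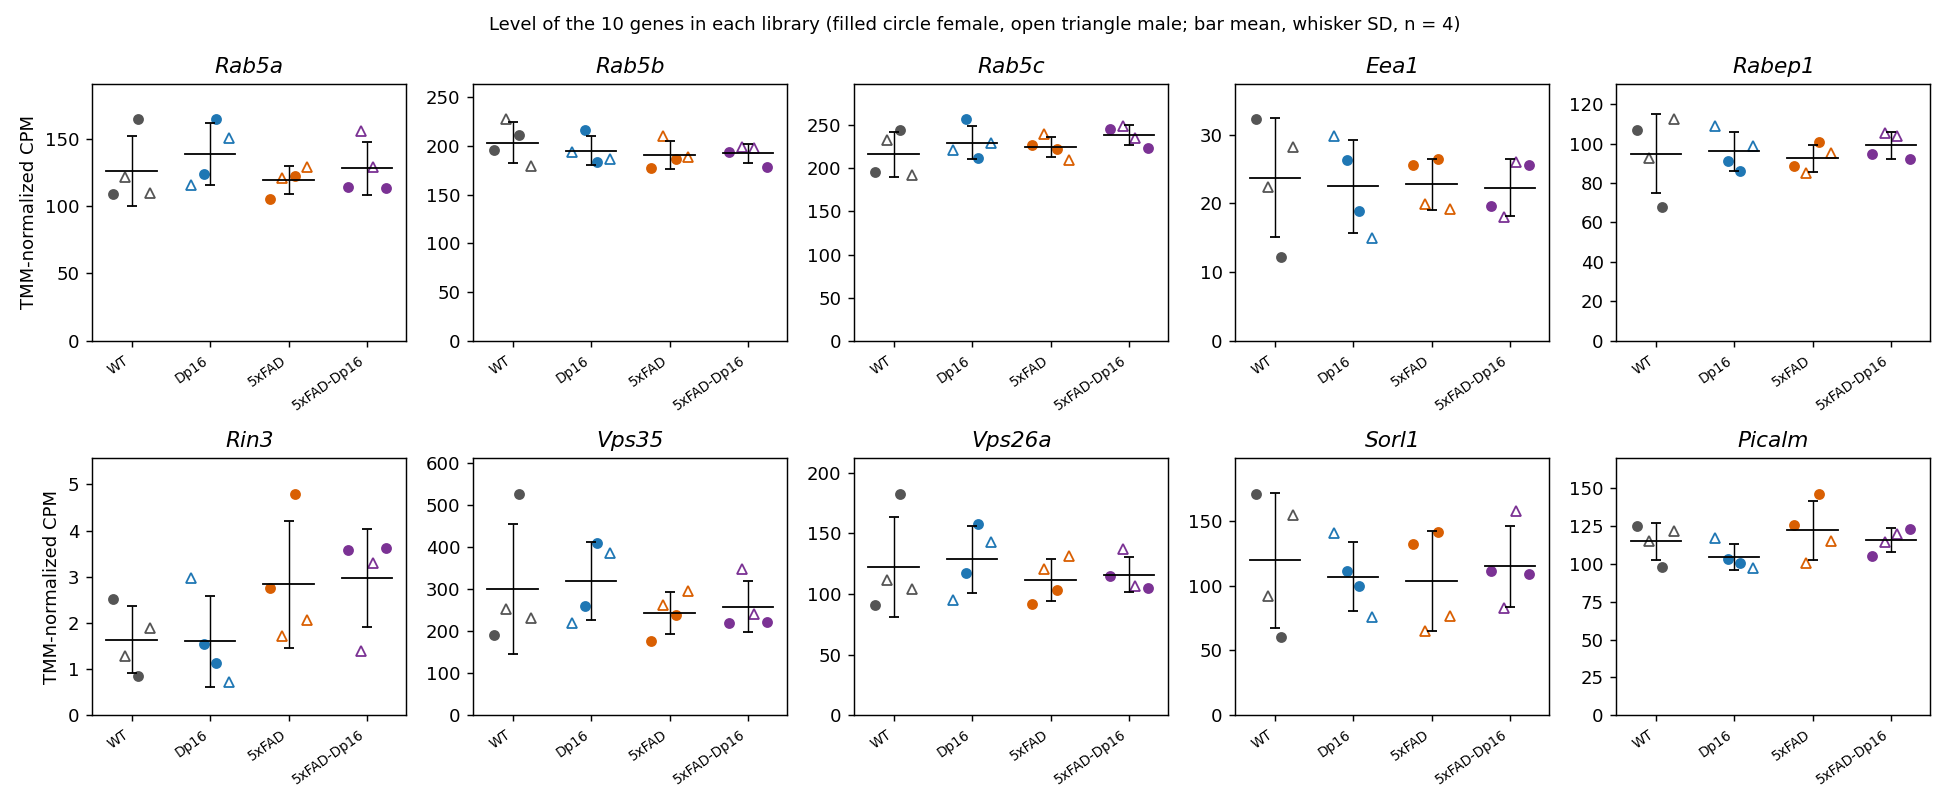
TMM-normalized CPM of each of the 10 genes (vertical axis, from 0, own scale per gene) in the 16 libraries by group. Filled circles are females, open triangles males, bars the group means and whiskers the SD (n = 4). In every panel the libraries of the 4 groups overlap, and WT replicate 3 is the highest library for Vps35 and Vps26a and the lowest for Eea1, Rabep1 and Sorl1.

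Measured per length, the Rab5 and retromer genes were the most abundant of the 10 and Rin3 the least. Mean RPKM (reads relative to exon length and library total, over 16 libraries) was 115 ± 10.1 (SD) for Rab5c, 79.7 ± 21.9 for Vps35, 61.4 ± 4.85 for Rab5b, 53.8 ± 6.40 for Rab5a and 41.5 ± 6.83 for Vps26a. Below these came Rabep1 (15.2 ± 2.17 RPKM), Picalm (13.97 ± 1.94), Sorl1 (10.5 ± 3.47), Eea1 (2.97 ± 0.79) and Rin3 (0.37 ± 0.19). The 3 genes for Rab5 itself were thus each above the genes for its effectors and its exchange factor in this tissue. Within libraries the order was fixed for 4 neighbours: Rab5a was above Vps26a, Vps26a above Rabep1, Sorl1 above Eea1 and Eea1 above Rin3 in 16 of 16. The other neighbours changed places in some libraries. Rab5c was above Vps35, Vps35 above Rab5b, and Picalm above Sorl1 in 14 of 16, while Rab5b was above Rab5a and Rabep1 above Picalm in 12 of 16, so these pairs do not differ in every library. Counts per library were 1000 or more for 8 of the 10 genes, 202 to 682 for Eea1 and 14 to 110 for Rin3, so Rin3 is the least precisely measured.

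The duplication was accompanied by no called change of any of the 10 genes. A gene was called at an adjusted p under 0.05 in edgeR's quasi-likelihood test, adjusted over all genes tested. In Dp16 against WT, 0 of 10 were called, against 0.0057% of all genes tested, and 0 of 10 had an unadjusted p under 0.05, against 2.2% of all genes. In 5xFAD-Dp16 against 5xFAD the counts were likewise 0 and 0, against 0.0057% and 3.59%. Over the 8 libraries with the duplication against the 8 without, 0 were called (0.0968% of all genes) and 0 had an unadjusted p under 0.05 (4.29% of all genes). The median log2 fold change of the 10 in this pooled comparison was 0.047, against -0.015 for all genes tested. DESeq2 also called 0 of the 10 in all 3 comparisons, beside 17, 27 and 64 of all 17555 genes tested, in the same order. These counts at the unadjusted level depend on WT replicate 3. Without it, 2 of the 10 had an unadjusted p under 0.05 in Dp16 against WT, against 18.1% of all genes in that fit: Vps35 (1.48-fold, 95% interval 1.07 to 2.05, edgeR unadjusted p = 0.0204, adjusted p = 0.272) and Rab5a (1.24-fold, 1.00 to 1.54, unadjusted p = 0.048, adjusted p = 0.276). In the pooled comparison without it this was 1 of 10, Vps35 (1.25-fold, 1.01 to 1.56, edgeR unadjusted p = 0.0426, adjusted p = 0.36), against 13.6% of all genes. These shares are near those of all genes, and 0 of the 10 were called.

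For the Rab5 genes the intervals around no change were narrow. Rab5a CPM were 109, 122, 164 and 109 in the WT libraries and 116, 124, 165 and 151 in the Dp16 libraries. The highest WT library (replicate 3) lay above 3 of the 4 Dp16 libraries, so the groups overlap. With the duplication against without it, Rab5a was at 1.09-fold (95% interval 0.91 to 1.30), Rab5b at 0.98-fold (0.86 to 1.12) and Rab5c at 1.06-fold (0.93 to 1.21; 8 against 8 libraries). All 3 intervals end below 1.5-fold, the ratio of gene copies on the duplicated segment, and did so with any single library left out. Among the regulators and effectors, Rabep1 was at 1.04-fold (0.89 to 1.21) and Eea1 at 0.96-fold (0.72 to 1.28). Rin3 was at 1.03-fold with an interval of 0.63 to 1.67, which does not leave out a change of that size.

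The retromer and sorting genes showed wider spread and no called change either. Vps35 CPM were 190, 254, 528 and 231 in WT and 219, 261, 411 and 385 in Dp16. Vps26a CPM were 91.0, 111, 183 and 104 in WT and 95.3, 118, 158 and 143 in Dp16. In both genes WT replicate 3 was the highest of the 16 libraries and Dp16 replicates 3 and 4 came next, while the other libraries of the 2 groups lay together. With the duplication against without it, Vps35 was at 1.06-fold (0.77 to 1.46) and Vps26a at 1.04-fold (0.83 to 1.31). Sorl1 was at 1.01-fold (0.71 to 1.42) and Picalm, the most negative of the 10, at 0.93-fold (0.80 to 1.07). Of the 10 upper bounds, 9 lie below 1.5-fold, the exception being Rin3, and of the 10 lower bounds 9 lie above the inverse of 1.5-fold, again except for Rin3. With single libraries left out, 7 to 9 upper bounds lay below 1.5-fold, and those that did not were of Rin3, Vps35 or Sorl1. Lower bounds above the inverse of 1.5-fold then numbered 7 to 10, and the others were of Rin3, Sorl1 or Eea1.

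The transgenes were likewise accompanied by no called change of the 10 genes, and Rin3 was the gene furthest from 0. In 5xFAD against WT 0 of 10 were called, against 1.52% of all genes, and 0 had an unadjusted p under 0.05, against 7.1%. In 5xFAD-Dp16 against Dp16 both counts were 0, against 0.387% and 3.92% of all genes. In the pooled comparison of 8 libraries with the transgenes against 8 without, 0 were called, against 2.18% of all genes, and 1 gene, Rin3, had an unadjusted p under 0.05, against 8.48% of all genes. A share of 1 in 10 is near that background. The median log2 fold change of the 10 was -0.050, and that of all genes tested -0.023.

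Rin3 CPM were 2.53, 1.29, 0.845 and 1.88 in WT, 2.98, 1.54, 1.14 and 0.729 in Dp16, 2.76, 1.73, 4.80 and 2.06 in 5xFAD, and 3.59, 1.39, 3.29 and 3.63 in 5xFAD-Dp16. Of the 8 transgenic libraries, 4 were above every library without the transgenes, and the other 4 overlapped them. The pooled log2 fold change was 0.79 ± 0.33 (SE), or 1.73-fold (95% interval 1.06 to 2.83), with an edgeR unadjusted p = 0.0312 and adjusted p = 0.493. In a fit with the length slope as covariate it was 0.71 ± 0.22 with an edgeR adjusted p = 0.0535; without the 3 libraries of lowest slope it was 0.39 ± 0.30, and limma-trend on log2(RPKM + 1), a scale that compresses low genes, gave 0.22. Without Dp16 replicate 1 it was 1.10 ± 0.29 with an adjusted p = 0.0689. Over all alternatives to this Rin3 value it kept its sign, and the adjusted p ran from 0.0535 to 0.830, so no setting called it.

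Microglial RNA moved with the same groups. The microglial markers Cx3cr1, P2ry12, Tmem119, C1qa and Csf1r were detected in all 16 libraries, and the summed level of these 5 was 272 to 321 CPM in WT, 239 to 292 in Dp16, 665 to 1001 in 5xFAD and 401 to 770 in 5xFAD-Dp16. All 5 markers were called higher in the pooled transgene comparison. The part of microglial RNA in the Rin3 values was not tested. In bulk tissue, more cells of a type and more RNA per cell cannot be told apart.

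The other 9 genes lay between 0.81-fold and 1.08-fold in the pooled transgene comparison. Rab5a was at 0.93-fold (95% interval 0.78 to 1.12), Rab5b at 0.96-fold (0.84 to 1.09) and Rab5c at 1.04-fold (0.91 to 1.19). Eea1 was at 0.97-fold (0.73 to 1.30) and Rabep1 at 1.00-fold (0.86 to 1.17). These 5 intervals contain no change and lie within 1.4-fold in either direction. Without the 3 libraries of lowest slope the log2 fold change of Eea1 was -0.31 ± 0.12 (edgeR adjusted p = 0.265). Picalm, with CPM of 126, 101, 147 and 115 in 5xFAD against 125, 115, 98.0 and 122 in WT, was at 1.08-fold (0.94 to 1.25) in the pooled comparison.

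Vps35 had the most negative value, at 0.81-fold (0.58 to 1.11; log2 fold change -0.31 ± 0.22). Its CPM were 177, 262, 239 and 296 in 5xFAD and 220, 348, 242 and 223 in 5xFAD-Dp16. These lie within the range of the 8 libraries without the transgenes apart from 5xFAD replicate 1, and the highest Vps35 levels of the series were in WT replicate 3 and Dp16 replicates 3 and 4. Without these 3 libraries the pooled Vps35 value turned to 0.13 ± 0.12, and 5xFAD against WT went from -0.31 ± 0.31 to 0.18. Leaving out WT replicate 3 alone gave 0.15 for 5xFAD against WT, so the sign of Vps35 in that comparison rests on that library. The pooled value was -0.09 without WT replicate 3, and 5xFAD-Dp16 against Dp16, which compares no WT library, was at -0.31 ± 0.31. Vps26a was at 0.91-fold (0.72 to 1.14), which turned to a log2 fold change of 0.15 without the same 3 libraries. Sorl1 was at 0.96-fold (0.68 to 1.35), and its CPM of 132, 65.0, 141 and 76.7 in 5xFAD lay inside the WT values of 171, 91.7, 60.4 and 155.

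**Figure D2:**
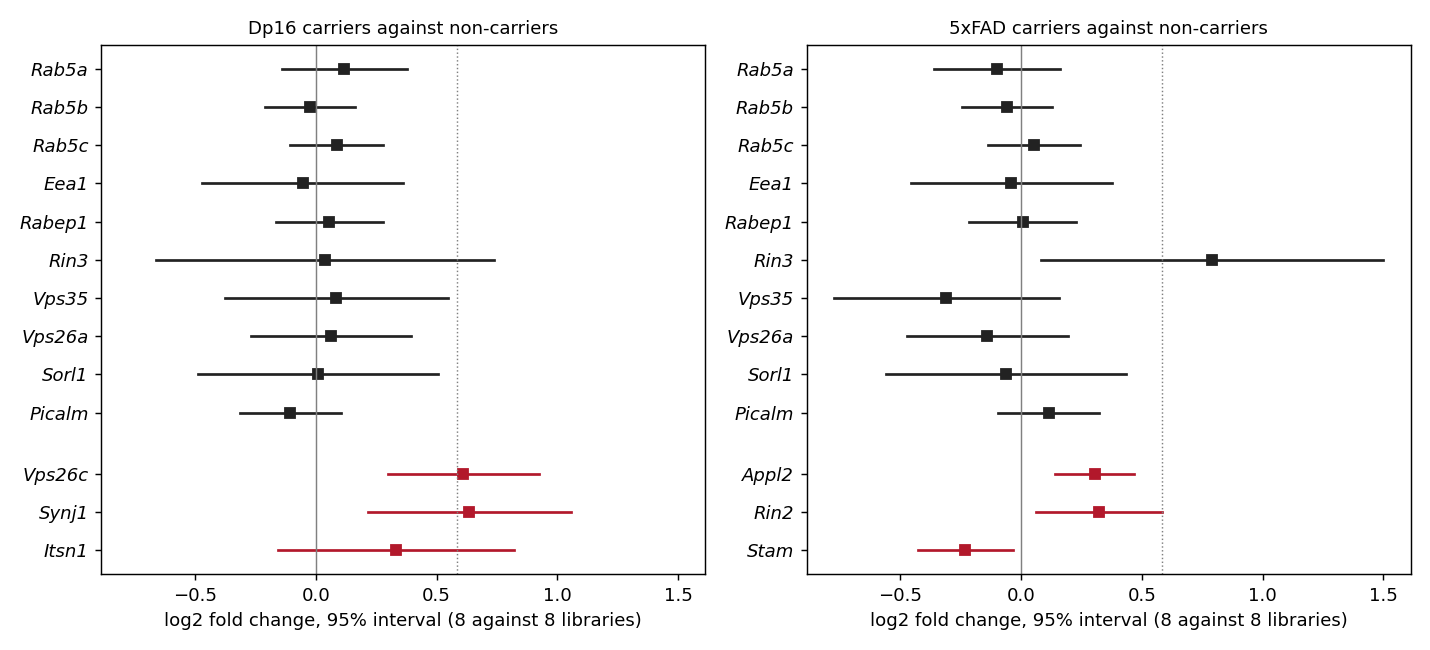
Log2 fold change with its 95% interval (horizontal axis, edgeR) for libraries with against without the duplication (left) and with against without the transgenes (right), 8 against 8. The 10 genes are in black and, in red, 3 genes of the fixed pathway lists per comparison; the solid line is no change and the dotted line 1.5-fold. Every black interval contains 0 except that of Rin3 on the right, which starts at 0.08.

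Carrying both genotypes added nothing that was called. In 5xFAD-Dp16 against WT, 0 of 10 genes were called (0.501% of all genes) and 0 had an unadjusted p under 0.05 (4.52% of all genes). Rin3 was again highest, at 1.77-fold (95% interval 0.89 to 3.54), and Rab5c was at 1.10-fold (0.91 to 1.33). With the length slope in the fit Rin3 was at 1.75-fold (1.12 to 2.73, edgeR unadjusted p = 0.0156, adjusted p = 0.305). It was 1 of 10 with an unadjusted p under 0.05 in that fit, beside 1671 of all 17555 genes tested. The interaction, which asks whether the effect of the transgenes differs between mice with and without the duplication, called 0 of 10, against 0% of all genes, with 0 at an unadjusted p under 0.05, against 1.36%. DESeq2 called 0 of 10 in both comparisons, beside 228 of all 17555 genes tested in 5xFAD-Dp16 against WT and 1 in the interaction. The Sorl1 interaction was the furthest from 0 at a log2 value of 0.34 ± 0.47, less than its error. The interval of the Rin3 interaction, from -1.31 to 1.49 on the log2 scale, is too wide to tell additive from unequal effects.

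Counting separation rather than fold, no gene of the 10 had groups that did not overlap. The count was 0 of 10 in Dp16 against WT, where 1.56% of all genes tested had groups without overlap, and 0 in 5xFAD against WT (5.19%), 5xFAD-Dp16 against WT (2.91%), 5xFAD-Dp16 against 5xFAD (3.21%) and 5xFAD-Dp16 against Dp16 (3.09%). The 5 comparisons share groups, so these counts are not independent of each other.

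Between the sexes, 0 of 10 genes were called (0.0456% of all genes) and 0 had an unadjusted p under 0.05 (2.93%). Rabep1 was at 0.91-fold in females against males (95% interval 0.78 to 1.06) and Rin3 at 1.26-fold (0.77 to 2.06). In the fit with the length slope the Rabep1 log2 difference was -0.15 ± 0.05, with an edgeR unadjusted p = 0.0109 and adjusted p = 0.361. It was 1 of 10 with an unadjusted p under 0.05 there, beside 1649 of all 17555 genes tested.

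The spread over the 16 libraries was unequal among the 10. Rab5b and Rab5c varied least, with a coefficient of variation over all 16 libraries of 7.49% and 8.10%, followed by Picalm (11.5%), Rabep1 (11.6%) and Rab5a (15.5%). These are below the median of 20.3% over tested genes whose mean log2 CPM was 3 or more. Vps26a (21.2%), Eea1 (24.4%), Sorl1 (31.4%), Vps35 (33.3%) and Rin3 (51.4%, a gene below that level) were above it. Vps35 ranged from 177 to 528 CPM, a 2.98-fold span, and Sorl1 from 60.4 to 171 CPM, a 2.84-fold span, and both extremes of Sorl1 were WT libraries. WT replicate 3 alone held the lowest or highest value of 5 of the 10 genes.

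This spread followed the length slope. Over all 16 libraries Vps26a fell as the slope rose (Pearson r = -0.96 and Spearman rho = -0.93; r = -0.92 without WT replicates 1 and 3, the libraries farthest from the median slope), as did Vps35 (r = -0.92, rho = -0.89; r = -0.86 without them) and Rab5a (r = -0.83, rho = -0.76; r = -0.78). Eea1 (r = 0.94, rho = 0.85; r = 0.88) and Sorl1 (r = 0.90, rho = 0.92; r = 0.88) rose with it. For Eea1, Vps35, Vps26a and Sorl1 the permutation p of r was 1e-05, the smallest that 100000 resamples can give, and 2.5e-05 after adjustment over the 10 genes. For Rab5a it was 3e-05, adjusted 6e-05. The slope was computed from the same expression values and from gene length, so these p-values do not test an independent relation. The permutation p of rho was 6e-05 for Eea1, 0.0011 for Rab5a and 1e-05 for the other 3, adjusted 0.00012, 0.0018 and 3.3e-05. Taken as deviations from the group means, these 5 values of r were -0.96, -0.93, -0.85, 0.96 and 0.93 in the order given, so the relation held within groups.

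The remaining genes had a smaller Pearson r with the slope, although the rho of Picalm was as large as that of Eea1. Rin3 (r = 0.76, rho = 0.73, adjusted permutation p of 0.0011 and 0.0029), Picalm (r = 0.76, rho = 0.87, adjusted p of 0.0011 and 7.5e-05) and Rabep1 (r = 0.75, rho = 0.57, adjusted p of 0.0021 and 0.031) rose with it. Without the 2 libraries farthest from the median, r was 0.76 for Rin3, 0.75 for Picalm and 0.46 for Rabep1, so the Rabep1 relation rests largely on those libraries. Rab5b (r = -0.33, rho = -0.26, permutation p of 0.21 and 0.32) and Rab5c (r = -0.46, rho = -0.40, permutation p of 0.072 and 0.13) had the weakest relations. The direction follows exon length, since the 5 genes that rose have 6229 to 10715 exon bases and the 5 with negative r have 1969 to 3474. The slope is itself computed from these expression values and from gene length, so such a relation is built in for genes of extreme length. Of all genes tested, 31.3% had r above 0.5 and 29.7% below -0.5.

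**Figure D3:**
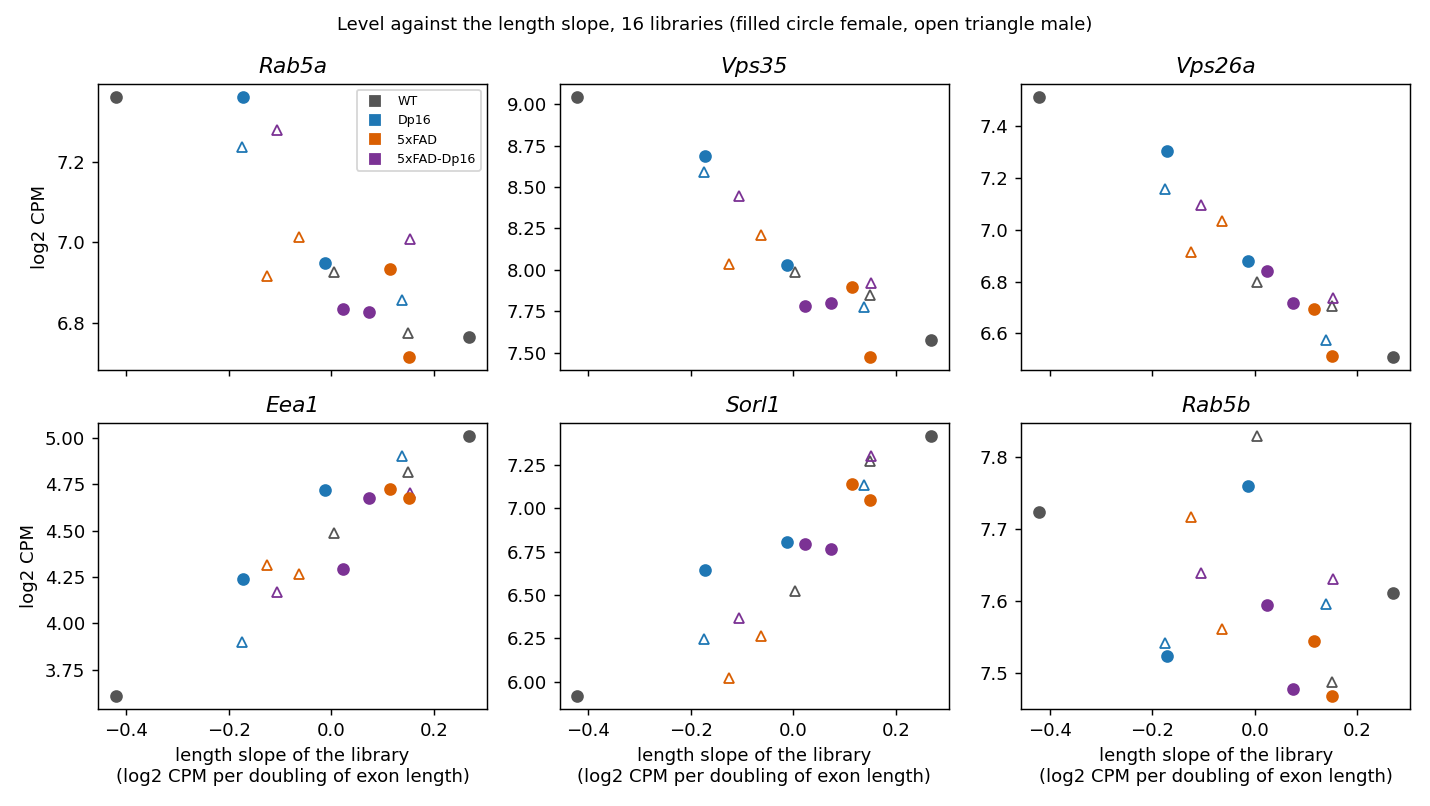
Log2 CPM (vertical axis, own scale per gene) against the length slope of each library (horizontal axis, log2 CPM per doubling of exon length) for 6 of the genes in 16 libraries, coloured by group. Rab5a, Vps35 and Vps26a fall and Eea1 and Sorl1 rise along the axis, with WT replicate 3 at the far left, while Rab5b shows no clear trend.

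With the slope as a covariate, errors shrank and the calls stayed at 0. The common biological coefficient of variation of the fit went from 0.292 to 0.160, and the standard error of the pooled Vps35 value from 0.22 to 0.07. The slope was computed from the same expression values that it adjusts. The part of this in the smaller errors was not tested. In that fit 0 of 10 genes were called in Dp16 against WT (0.256% of all genes), 5xFAD against WT (5.51%), 5xFAD-Dp16 against WT (2.06%), 5xFAD-Dp16 against 5xFAD (0.718%), 5xFAD-Dp16 against Dp16 (1.22%), the interaction (0%), the pooled comparison of the duplication (1.15%), that of the transgenes (6.17%) and females against males (0.0741%). For the duplication every one of the 10 intervals then ended below 1.5-fold: Vps35 was at 1.06-fold (0.95 to 1.17), Vps26a at 1.03-fold (0.96 to 1.12) and Sorl1 at 1.08-fold (0.96 to 1.20). For the transgenes Sorl1 was at 0.89-fold (0.79 to 1.00, edgeR unadjusted p = 0.0439, adjusted p = 0.247) and Vps35 at 0.92-fold (0.83 to 1.02). In that comparison 2 of the 10, Rin3 and Sorl1, had an edgeR unadjusted p under 0.05, beside 3304 of all 17555 genes tested.

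The 3 Rab5 genes encode closely related GTPases, and their balance within a library does not depend on library scaling. Rab5c made up the largest share of the summed Rab5 RPKM, with a mean of 48.4 ± 0.64% (SD, n = 4 in each group) for WT, 49.3 ± 2.66% for Dp16, 50.8 ± 2.14% for 5xFAD and 51.4 ± 1.68% for 5xFAD-Dp16. Rab5b held 28.3 ± 1.94, 25.9 ± 1.57, 26.7 ± 0.81 and 25.7 ± 0.77% in the same order, and Rab5a 23.3 ± 2.38, 24.8 ± 4.07, 22.5 ± 1.85 and 22.9 ± 2.18%. The Rab5c share was 3.04 percentage points higher in 5xFAD-Dp16 than in WT, with 49.6 to 53.4% against 47.7 to 49.1% and no overlap (exact two-sided permutation p = 0.0286, the smallest that 4 against 4 allows). After adjustment over the 20 share tests that p was 0.571, and 0 of the 20 passed.

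Vps26a shares its place in retromer with the paralog Vps26b. Vps26a made up 58.1 ± 12.1% of their summed RPKM for WT, 60.2 ± 8.84% for Dp16, 58.1 ± 5.40% for 5xFAD and 56.5 ± 3.53% for 5xFAD-Dp16. The share was highest, at 75.8, 69.4 and 65.8%, in the 3 libraries of lowest length slope (WT replicate 3 and Dp16 replicates 3 and 4) and lowest, at 48.8%, in that of highest slope (WT replicate 1). It thus ran from 48.8 to 75.8% within WT alone, and the smallest exact permutation p among its 5 group comparisons was 0.486. Reads that fit more than 1 paralog could be assigned or dropped by the counting, which was not examined.

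**Figure D4:**
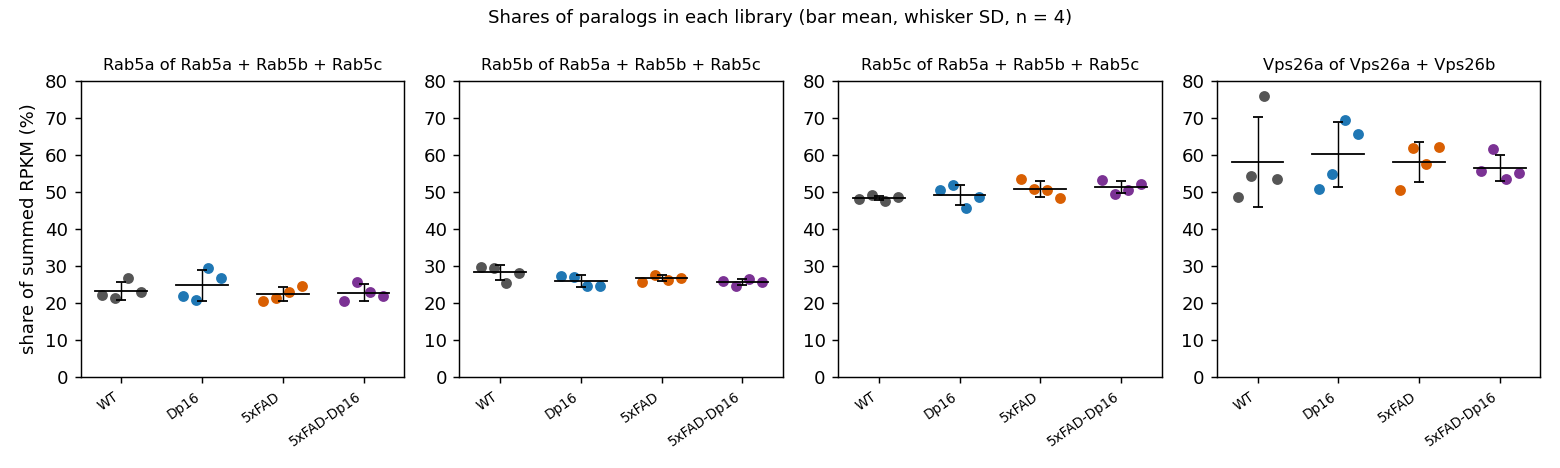
Share of each Rab5 gene in the summed Rab5 RPKM, and of Vps26a in Vps26a plus Vps26b (vertical axis, percent), in the 4 libraries of each group, with bars at the mean and whiskers of SD. The Rab5c share is 47.7 to 49.1% in WT and 49.6 to 53.4% in 5xFAD-Dp16; Vps26a spreads from 48.8 to 75.8% in WT.

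Other genes of the pathway were read from 7 fixed lists with 106 genes, all of them tested. edgeR called 0 of 106 in each of the 9 comparisons; 4 had an unadjusted p under 0.05 in each of the 2 pooled comparisons, against 4.29% of all genes for the duplication and 8.48% for the transgenes. DESeq2 called 1 in each, against 0.365% and 3.49% of all genes. The median log2 fold change of the 106 was 0.0067 for the duplication and 0.0033 for the transgenes, near the medians of all genes tested given above. In the fit with the length slope, 3 of 106 rose with the duplication and 0 fell, against 1.15% of all genes called, and 4 rose and 1 fell with the transgenes, against 6.17% of all genes. The count of 5 in 106 with the transgenes is thus not above that of all genes.

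The 3 that rose with the duplication were the 3 of the 106 that lie on the duplicated segment. They are Vps26c, a VPS26 relative that serves the retriever complex (chromosome 16, 94497783 to 94526830), Synj1, the phosphoinositide phosphatase synaptojanin that uncoats clathrin vesicles (90936092 to 91011308), and Itsn1, an endocytic scaffold (91729281 to 91920597). Vps26c averaged 46.3 ± 13.3 CPM (SD, n = 4 in each group) for WT, 75.5 ± 14.4 for Dp16, 46.4 ± 8.33 for 5xFAD and 66.3 ± 9.50 for 5xFAD-Dp16, and its WT range of 34.3 to 64.6 CPM overlapped that of Dp16, 60.7 to 89.7. The pooled log2 fold change of Vps26c was 0.61 ± 0.15 with an edgeR adjusted p = 0.298, and 0.60 ± 0.06 with an adjusted p = 8.14e-07 with the slope. Synj1 was at 0.63 ± 0.20 (edgeR adjusted p = 0.717), and 0.71 ± 0.07 (adjusted p = 1.70e-06) with the slope. Itsn1 was at 0.33 ± 0.23 (edgeR adjusted p = 1.00), and 0.42 ± 0.06 (adjusted p = 0.000226) with the slope. By list, 1 of 18 retromer, retriever and sorting nexin genes, 1 of 10 phosphoinositide enzymes and 1 of 24 clathrin endocytosis genes rose in that fit, and 0 of 17 Rab5 regulators and effectors, 0 of 8 WASH and CCC genes, 0 of 15 sorting receptor, GGA and ESCRT-0 genes and 0 of 14 recycling and late endosome genes.

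With the transgenes, Appl2, which encodes a Rab5 effector on signalling endosomes, came closest to a call without the slope. Its level averaged 62.3 ± 3.71 CPM (SD, n = 4 in each group) for WT, 62.3 ± 3.10 for Dp16, 81.1 ± 4.80 for 5xFAD and 73.0 ± 3.21 for 5xFAD-Dp16, and the 8 libraries with the transgenes (70.3 to 84.3 CPM) lay above the 8 without them (58.4 to 66.0 CPM). The share of all genes tested that separate in this way was not counted, and Appl2 was picked from the 106 genes by its small p. The pooled log2 fold change of Appl2 was 0.31 ± 0.08 with an edgeR adjusted p = 0.0546. It was 0.29 ± 0.05 with an adjusted p = 0.000561 with the slope, and its adjusted p ran from 4.46e-05 with DESeq2 to 0.502 without the low-count filter. Also called with the slope were Ankfy1, a Rab5 effector (0.23 ± 0.07, edgeR adjusted p = 0.0375), Snx5, a retromer-associated sorting nexin (0.26 ± 0.05, adjusted p = 0.00315), and Dnm2, the dynamin that pinches off vesicles (0.31 ± 0.08, adjusted p = 0.0145). Lrrk2, a kinase that phosphorylates Rab GTPases, fell by 0.32 ± 0.09 on the log2 scale (adjusted p = 0.0341). In 5xFAD against WT, where 5.51% of all genes were called, the slope fit called 3 of the 106: Appl2, Lrrk2 (-0.60 ± 0.13, edgeR adjusted p = 0.0046) and Stam, a component of ESCRT-0, which was at 59.6 ± 5.22 CPM in WT and 46.6 ± 4.41 CPM in 5xFAD (SD, n = 4; -0.35 ± 0.10, adjusted p = 0.0343); without the slope the Stam adjusted p was 0.406 and that of Lrrk2 0.578. Close relatives of members were not called: Rin2, a relative of Rin3, was at 0.32 ± 0.12 with the transgenes (edgeR adjusted p = 0.369), and Rabep2, a relative of Rabep1, at 0.38 ± 0.13 with the duplication (adjusted p = 0.864). By list the 5 genes called in the pooled comparison were 2 of 17 Rab5 regulators and effectors, 2 of 18 retromer, retriever and sorting nexin genes (Snx5 up and Lrrk2 down) and 1 of 24 clathrin endocytosis genes, with 0 in the other 4 lists, beside 6.17% of all genes. Microglial marker sums moved with the same groups, as given above. The summed level of 5 astrocyte markers was 1640 to 2043 CPM without and 2272 to 4551 CPM with the transgenes. Of these 5, 2 were called higher in the pooled transgene comparison, and their median log2 fold change was 0.35. The part of microglial and astrocyte RNA in the values of the pathway genes was not tested.

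Among the 10 genes, Rab5a, Vps35 and Vps26a, which had the strongest negative slope relations, varied together. Across the 16 libraries log2 CPM of Vps35 and Vps26a correlated at r = 0.98, Rab5a and Vps35 at 0.96, and Rab5a and Vps26a at 0.92. Rab5b and Rab5c, with weaker negative slope relations, followed these genes less. Their r with Rab5a, Vps35 and Vps26a was 0.20, 0.24 and 0.24 for Rab5b and 0.32, 0.28 and 0.34 for Rab5c. Eea1 and Sorl1 correlated at 0.88 with each other and negatively with the retromer genes (Eea1 with Vps26a at -0.91). These libraries share the length slope, so the values are given as a description. Among 10530 genes compared over the 16 libraries, the patterns most like that of Vps35 were Tmem70 (r = 0.991), Cct6a (0.991) and Mob4 (0.990), and those most like Vps26a were Smu1 (0.987), Tcea1 (0.986) and Rsl1d1 (0.985). Those most like Sorl1 were Heatr5b (0.969), Atp2a2 (0.967) and Luzp1 (0.965), and those most like Eea1 were Lrp3 (0.973), 6430548M08Rik (0.972) and Xylt1 (0.969). For Rab5a they were Zfp938, Azin1 and Hapln1 (r = 0.961 each), and for Rabep1 Trim33 (0.927), Fbxw11 (0.918) and Suz12 (0.911). Rab5b and Rab5c, which followed the slope least, had looser neighbours, led by Cdc23 (r = 0.850) for Rab5b and Sfxn1 (r = 0.831) for Rab5c. Picalm was nearest to Tmem170b (0.903) and Rin3 to Clic4 (0.932).

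The 250 bases before the annotated start of each gene were compared among the 10. RefSeq promoter windows (GRCm38.p6) were matched by symbol for 8 genes; Rabep1 and Vps35 were not matched. The sequence CACGTG, an E-box that is its own reverse complement, occurred in 4 of the 8 windows (Rab5a, Vps26a, Sorl1 and Picalm), against 6.02% of 32851 promoter windows of the same length. Its extended form TCACGTGA, the core of the CLEAR element known from lysosomal gene promoters and also its own reverse complement, occurred in 3 of them (Rab5a, Vps26a and Picalm), against 0.785% of all windows. Each TCACGTGA contains a CACGTG. The 4 genes with CACGTG did not all vary together over the 16 libraries. Rab5a and Vps26a correlated at r = 0.92. Sorl1 correlated at -0.63 with Rab5a and -0.79 with Vps26a, and Picalm at -0.58 and -0.72. Sorl1 and Picalm correlated at 0.69 with each other. Vps35, which correlated at 0.96 with Rab5a and 0.98 with Vps26a, has no window here. Shared regulation was not tested. The 4 windows are printed 5′ to 3′ on the strand of the gene, with CACGTG in capitals, and they lie at chr17:53478984-53479233, plus strand (Rab5a), chr10:62486806-62487055, minus strand (Vps26a), chr9:42124298-42124547, minus strand (Sorl1) and chr7:90129963-90130212, plus strand (Picalm).
Rab5a: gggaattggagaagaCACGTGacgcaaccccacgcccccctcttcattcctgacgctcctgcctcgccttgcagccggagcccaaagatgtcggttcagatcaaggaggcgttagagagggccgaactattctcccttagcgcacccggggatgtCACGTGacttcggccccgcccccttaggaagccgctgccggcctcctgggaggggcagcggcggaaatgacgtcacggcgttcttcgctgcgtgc
Vps26a: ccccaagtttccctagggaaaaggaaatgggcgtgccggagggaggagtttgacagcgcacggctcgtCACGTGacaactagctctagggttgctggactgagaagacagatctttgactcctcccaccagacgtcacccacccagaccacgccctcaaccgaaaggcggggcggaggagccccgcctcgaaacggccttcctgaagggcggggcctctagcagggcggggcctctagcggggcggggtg
Sorl1: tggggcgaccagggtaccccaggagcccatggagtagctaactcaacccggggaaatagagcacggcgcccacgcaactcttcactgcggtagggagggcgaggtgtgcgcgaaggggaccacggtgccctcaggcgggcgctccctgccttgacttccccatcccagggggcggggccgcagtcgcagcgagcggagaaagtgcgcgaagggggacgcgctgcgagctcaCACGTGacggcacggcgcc
Picalm: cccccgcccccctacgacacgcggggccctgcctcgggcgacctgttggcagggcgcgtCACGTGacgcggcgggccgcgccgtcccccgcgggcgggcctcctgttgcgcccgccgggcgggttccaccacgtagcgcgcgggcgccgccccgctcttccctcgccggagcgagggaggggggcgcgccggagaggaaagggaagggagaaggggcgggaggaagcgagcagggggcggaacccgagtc

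The window of Rab5a holds CACGTG 2 times and those of Vps26a, Sorl1 and Picalm 1 time each. Searched on both strands, the GC box GGGCGG occurred in 8 of 8 windows, against 32.7% of all windows, the CCAAT box in 4 of 8 (33.8%), the TATA box TATAAA in 0 of 8 (12.4%) and the cyclic AMP response element TGACGTCA in 1 of 8, that of Rab5a (1.55%). The windows of the 8 genes had 59.2 to 79.2% G and C. The windows set against them were not matched for G and C content or for expression, and CACGTG itself contains CG. The shares of all windows are thus not a like background for these 8. A match is a run of letters and not a measured binding site.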

How the data were processed

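Polyadenylated RNA of cortex from 16 mice was sequenced as stranded, paired-end libraries, per the labels' protocols. Per the submitters' processing notes, the tools include HISAT2 2.1.0 and HTSeq 0.6.1, besides SAMtools 1.5, FastQC 0.11.5 and bcl2fastq, with the build GRCm38; settings are not given in the sources used here. The authors deposited a table of raw read counts per gene and a table of RPKM values, scaled by the authors to gene length and library total. Dividing one by the other gave whole-number exon lengths (largest deviation 2.2e-10).

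Sample titles identified the columns, and the labels gave group, sex and replicate number. Counts of replicates within a group differed (chi-square divided by its degrees of freedom, 17.2 to 302), so none was counted as a copy. edgeR 4.0.16 (R 4.3.3) tested 17555 genes left by filterByExpr (minimum count 10) with TMM scaling, a quasi-likelihood fit that held all 16 libraries and a term for sex. The 9 comparisons were 5 pairwise ones, the interaction, each genotype pooled over the other, and sex. The error given with a log2 fold change is the standard error derived from its F statistic, and p-values were adjusted (Benjamini-Hochberg) over all genes tested. Paralog shares were compared with exact permutation tests, and slope relations with 100000 resamples. The length slope used genes with a mean log2 CPM above 2.

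As alternatives, single libraries were left out, the length slope was added as covariate, the replicate number was added as a block, the sex term or the low-count filter was dropped, or only the 2 groups compared were fitted. Other tools were DESeq2 1.42.0, edgeR with RLE size factors, and limma-trend (limma 3.58.1) on log2(RPKM + 0.1) or log2(RPKM + 1). Leaving out the 3 libraries of lowest slope was added after the data were seen. The genes, the lists and the length slope were chosen with earlier results of these data known. Named pathway genes are those called in a comparison, up to 4 per list, and up to 2 of smallest p in lists with no call; the 3 genes of most similar pattern per member had a mean log2 CPM of at least 3. A marker gene of the microglial list and a detail of the transgenes are not reported here.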

Additional observations from a re-analysis of the deposited data

Results flagged for a closer look

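Of 56 groups of 4 libraries tested for a library apart from the other 3, 2 were flagged, both for 5xFAD-Dp16 replicate 2; chance flags about 1 in 20 groups. Its Rin3 level was 1.39 CPM, against 3.29 to 3.63 CPM in the other 3 libraries of the group. Its Vps35 level was 348 CPM, against 220 to 242 CPM. Its length slope of -0.11 was the lowest of the group, and the part of the slope in these values was not tested. Without this library the pooled transgene value was 0.93 for Rin3 and -0.39 for Vps35, on the log2 scale.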

How the results depend on the processing

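The count of called genes among the 10 was 0 in all 9 comparisons under every alternative run (24 to 26 per comparison). The fits of only the groups compared were made for the pairwise comparisons. Of the log2 fold changes recomputed for the genes named here, 1121 kept their direction and call, 20 gained a call and 69 changed sign; the signs that changed belonged to values of Eea1, Picalm, Rab5a, Rab5b, Rabep1, Rin3, Sorl1, Vps26a and Vps35, none of them called. The cause was not tested in any case.

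Pathway genes called were 0 in all comparisons without an alternative. With the length slope they were 2 for Dp16 against WT, 3 for 5xFAD against WT, 3 for 5xFAD-Dp16 against WT, 3 for 5xFAD-Dp16 against 5xFAD, 3 for the pooled duplication and 5 for the pooled transgenes. DESeq2 gave 1 for 5xFAD against WT and for each pooled comparison. No sex term and both limma-trend fits gave 1 for the pooled transgenes, and no low-count filter 2 for the pooled duplication. Without the 3 libraries of lowest slope there were 1 for 5xFAD-Dp16 against WT, 1 for the pooled transgenes and 2 for the pooled duplication. Leaving out single libraries gave 0 to 1 in both pooled comparisons; the 1 came without WT replicate 3, and was Vps26c (adjusted p = 0.0068) for the duplication and Appl2 (adjusted p = 0.0459) for the transgenes.

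Values with a changed sign were, with the length slope, Eea1 in the pooled duplication comparison (0.010), Rab5a interaction (0.020), Rabep1 with the transgenes (-0.028) and Sorl1 in Dp16 against WT (0.063). With limma-trend and a pseudocount of 0.1 or of 1 added to RPKM the values were 0.057 and 0.029 for Eea1 with the transgenes, 0.00035 and 0.00033 for Rab5b with the duplication, and 0.013 and 0.0088 for Sorl1 with the transgenes. Rabep1 with the transgenes was -0.0058 with DESeq2 and -0.0056 with RLE size factors, and Sorl1 with the duplication was -0.0058 without a sex term. Without the 3 libraries of lowest slope, values with the transgenes were 0.11 for Rab5a, -0.070 for Rabep1, 0.15 for Vps26a and 0.13 for Vps35; Rab5b with the duplication was 0.024; and Vps35 was 0.18 in 5xFAD against WT, 0.081 in 5xFAD-Dp16 against Dp16 and 0.26 in 5xFAD-Dp16 against WT.

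Leaving out single libraries gave, with the transgenes, -0.16 to 0.057 for Eea1, -0.057 to 0.055 for Rabep1 and -0.21 to 0.049 for Sorl1. With the duplication it gave -0.17 to 0.035 for Eea1, -0.053 to 0.011 for Rab5b, -0.0038 to 0.10 for Rabep1, -0.31 to 0.20 for Rin3, -0.12 to 0.13 for Sorl1, -0.0057 to 0.21 for Vps26a and -0.0018 to 0.33 for Vps35. In 5xFAD-Dp16 against 5xFAD it gave -0.18 to 0.023 for Picalm and -0.069 to 0.33 for Sorl1, in Dp16 against WT -0.41 to 0.067 for Sorl1, and for the Rab5a interaction -0.22 to 0.045. Vps35 was -0.48 to 0.15 in 5xFAD against WT and -0.39 to 0.24 in 5xFAD-Dp16 against WT, the highest without WT replicate 3.

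Differences in paralog share (percentage points) with single libraries left out ran, for Rab5a, from -1.63 to 0.26 in 5xFAD against WT, -0.56 to 1.17 in 5xFAD-Dp16 against 5xFAD, -1.42 to 0.68 in 5xFAD-Dp16 against WT and -0.15 to 2.77 in Dp16 against WT. For Rab5b they ran from -0.69 to 0.26 in 5xFAD-Dp16 against Dp16, and for Rab5c from -0.27 to 1.48 in 5xFAD-Dp16 against 5xFAD and -0.00074 to 2.07 in Dp16 against WT. For Vps26a they ran from -3.08 to 5.94 in 5xFAD against WT (-0.19 from counts), -4.71 to 4.31 in 5xFAD-Dp16 against WT and -0.998 to 8.02 in Dp16 against WT. The Rab5c relation with the slope was r = -0.53 with RLE size factors, past the threshold.

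The replicate numbers in the labels were checked for pairing: 24 same-numbered pairs of libraries had correlations of -0.35 to 0.51. In 7 of the 24 the best match among the 4 libraries of the other group was the same number. This gave no sign of pairing by number, but it cannot exclude pairing by litter or processing. With the replicate number as a block 0 of the 10 genes were called, and Rin3 in the pooled duplication comparison changed sign to -0.015. Rin3, with 14 to 110 counts per library, is limited by depth more than the other 9 genes.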
